A study of Mus musculus with 6 samples.

Results

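Osteoblast and bone collagen genes were followed here in mouse bone marrow. The set holds 10 genes, taken by symbol from the 47561 entries of each expression table: the fibrillar collagen genes Col1a1, Col1a2 and Col3a1, the bone matrix protein genes Bglap, Bglap2, Ibsp, Spp1 and Sparc, the phosphatase gene Alpl, and Runx2. RNA was sequenced from 3 marrow samples of mice under chronic unpredictable mild stress (CUMS), a procedure of varied mild stressors used to produce a depression-like state, and from 3 marrow samples of control mice. The stress lasted 4 weeks. The labels give the tissue as marrow cells and name no strain, sex, age, transgene or pooling, and they do not say whether each library is 1 animal, so p-values measure the spread between these libraries only. The series title points to myelopoiesis in depression, and the comparison asked here is whether the bone-forming compartment that shares the marrow differed too.

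Osteoblasts line the inner bone surface and come from the same stromal lineage as the reticular cells that hold blood progenitors in the marrow. They secrete type I collagen, a triple helix built from the products of Col1a1 and Col1a2, and then load it with non-collagenous proteins and mineral. RUNX2 is the transcription factor that commits cells to this fate, alkaline phosphatase (Alpl) supplies phosphate for mineral, and osteocalcin (Bglap, Bglap2) marks late osteoblasts. Marrow holds mainly blood cells, and several of these genes are also used by them: Sparc is stored in platelets, Spp1 is made by macrophages and osteoclasts, and Runx2 by plasmacytoid dendritic cells.

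Values are FPKM, fragments scaled to gene length and to library size. The length used for each gene is not stated, so levels can be compared between genes only roughly. For Col1a2 the merged GENCODE exons hold 12426 bp and the longest coding transcript 5348 bp, and for Col1a1 6563 and 5930 bp. Depth in reads was not recoverable: at most 15.2% of low values of single-exon genes came within 0.05 of a whole multiple of 1 fragment in any library. Between 21334 and 23224 entries had a value above 0 per library. A code in the table headers split the libraries, with both replicates 1 under code 1 and replicates 2 and 3 under code 2. Its meaning is not stated, and many genes differed by it: 3747 of 12302 tested genes (30.5%) differed between the codes at a limma adjusted p under 0.05. For the tested genes of the set, values are therefore given within each code beside the pooled ones. For most other genes named below only library values or group means are given, not changes within each code. For some of them a fit with the code as a term is added. Blood cell markers were abundant, with summed FPKM of 6 erythroid genes at 189431 to 231921 in CUMS and 163036 to 193599 in control libraries, and of 6 neutrophil genes at 47366 to 49377 in CUMS and 44847 to 62813 in control libraries.

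In CUMS marrow Col1a2, a gene of type I collagen, rose to 1.59 times the control mean, and its partner Col1a1 was at 1.54 times the control mean and passed once the header code or the replicate number was a term. Bglap, Bglap2, Spp1 and Sparc had means above control that did not pass, and Ibsp, Alpl and Runx2 were near the control level. Of the 10 genes 9 could be tested (at least 1 FPKM in at least 3 libraries) and 1 rose, where 1.07% of all 12302 tested genes were called (132 genes; 0.618% higher and 0.455% lower). With the replicate block 2 of the 9 were called higher and 0 lower (Col1a1 and Col1a2), against 3.49% and 4.31% of all tested genes (7.8% in all). With the header code as a term it was the same 2 genes and 0 lower, against 6.06% and 7.31%. In code 2 alone 4 were called higher and 0 lower (those 2, Bglap and Bglap2), against 8.82% and 8.84%. The CUMS libraries all lay above the control libraries for Col1a2, Bglap and Sparc, 3 of 9, against 10% of all tested genes (22.1% did not overlap in either direction, and 12.1% had all CUMS libraries lower). Within each header code Col1a1, Col1a2, Bglap, Bglap2, Spp1 and Sparc, 6 of 9, had CUMS libraries above control and 0 had them below, against 21.1% and 23% of all tested genes. In code 1, with 1 library a group, Bglap and Bglap2 were nearly level, at 1.01 and 1.02 times control. These genes are nearly identical copies (98.6% of coding bases), and how reads matching both were divided is not stated. The counts that include both may therefore rest partly on the same reads. The median log2 change of the 9 was 0.30, against -0.0017 for all tested genes. In bulk RNA a change in the number of cells of a type and a change in RNA per cell cannot be told apart.

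**Figure D1:**
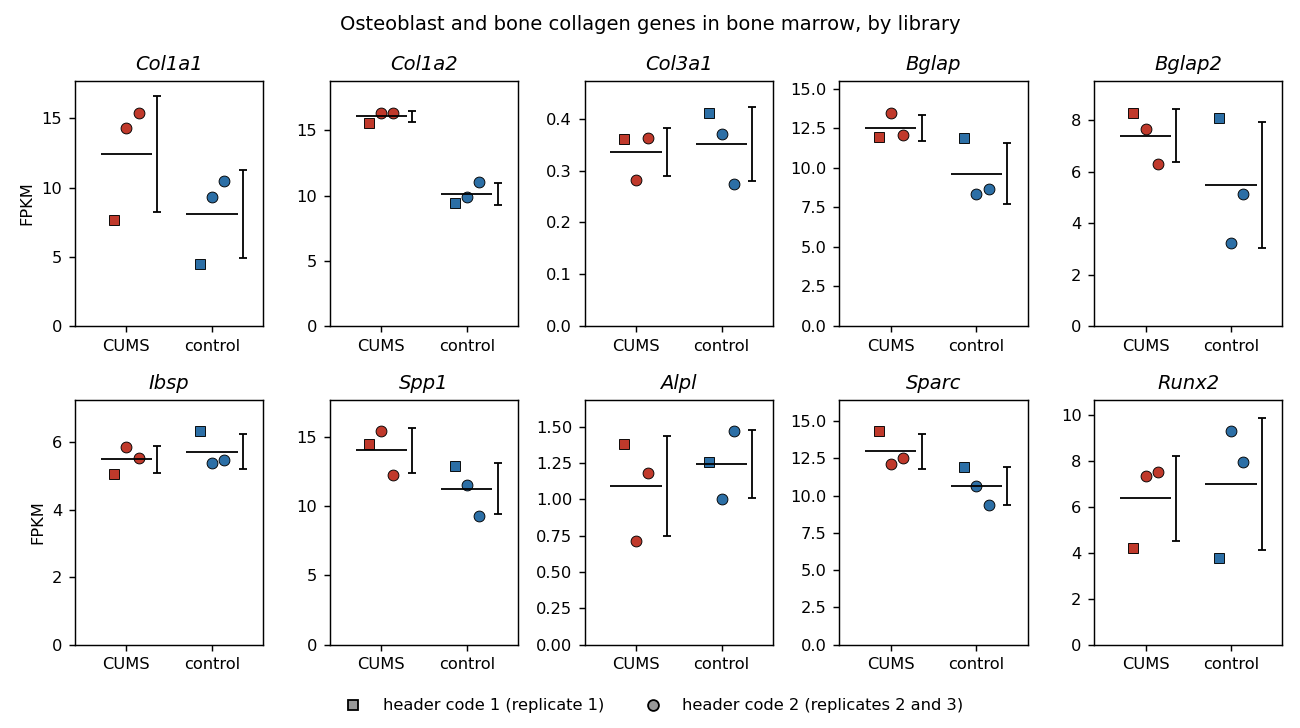
FPKM of each of the 10 genes (y axes, linear from 0) in the 3 CUMS and 3 control libraries; squares are libraries of header code 1, circles of code 2, lines group means and bars SD (n = 3). The Col1a2 points of CUMS (15.6 to 16.3) lie above those of control (9.42 to 11.0), while for Col1a1 and Runx2 the square is the lowest point of each group.

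Col1a2, which encodes the alpha-2 chain of type I collagen (chromosome 6, 4505618 to 4541543, GRCm38), was at 15.6, 16.3 and 16.3 FPKM in CUMS libraries and at 9.42, 9.90 and 11.0 FPKM in control libraries. The groups did not overlap, and CUMS was higher within both header codes, at 1.66 times control in the code 1 pair and 1.56 times in code 2. It averaged 16.1 ± 0.425 FPKM in CUMS and 10.1 ± 0.833 FPKM in control (SD, n = 3 each), a log2 change of 0.62 (SE 0.095, limma adjusted p = 0.0293). The limma adjusted p was 0.00225 with the header code as a term and 0.00842 with the replicate block. The call was lost when the libraries were scaled to the same total (0.0811) or the filter on low values was dropped (0.0866). It was also lost when CUMS replicate 1 (0.0631), CUMS replicate 2 (0.175), CUMS replicate 3 (0.178), control replicate 2 (0.119) or control replicate 3 (0.0987) was left out, with log2 changes of 0.61 to 0.68.

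Col1a1, which encodes the alpha-1 chain (chromosome 11, 94936224 to 94953042), was at 7.63, 14.3 and 15.4 FPKM in CUMS libraries and at 4.48, 9.31 and 10.4 FPKM in control libraries. The lowest library of each group was the one of header code 1, and on the pooled values the groups overlapped. Within code 1 CUMS was at 1.70 times control, and within code 2 at 1.50 times with no overlap. The log2 change was 0.58 (SE 0.330, limma adjusted p = 0.458), close to that of Col1a2 but with a larger error. With the header code as a term the SE was 0.079 and the limma adjusted p 0.00443, and with the replicate block the adjusted p was 0.0108. Between the codes Col1a1 differed by 0.93 on the log2 scale (code 2 minus code 1, limma adjusted p = 0.000571), a larger difference than that between the groups.

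Because the gene products of Col1a1 and Col1a2 are assembled together, their ratio was followed in each library. The gene lengths used are not stated, so only differences of the ratio between libraries are read. Col1a1 over Col1a2 was 0.490, 0.874 and 0.942 in CUMS libraries and 0.475, 0.940 and 0.946 in control libraries. The ratio followed the header code, with both code 1 libraries low, and not the group: the CUMS mean was 0.768 ± 0.244 and the control mean 0.787 ± 0.270 (SD, n = 3; two-sided exact permutation p = 0.9, where 0.1 is the smallest p that 3 against 3 allows). Summed, the pair of genes was at 23.2, 30.6 and 31.7 FPKM in CUMS libraries and at 13.9, 19.2 and 21.5 FPKM in control libraries, which do not overlap (exact permutation p = 0.1).

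Col3a1, the type III collagen gene of fibroblasts and reticular fibres, stayed below the level needed for a test. It was listed at 0.361, 0.282 and 0.364 FPKM in CUMS libraries and at 0.411, 0.371 and 0.273 FPKM in control libraries. The groups overlapped, and the level was far under that of both type I genes in every library.

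The promoter of Col1a2 is shown because it belongs to the one gene of the set that passed the test. It is the RefSeq sequence from 250 bases before to 50 bases after the start (GRCm38.p6, chr6:4505368-4505667, plus strand), and capitals mark CCAAT or its complement ATTGG.
Col1a2: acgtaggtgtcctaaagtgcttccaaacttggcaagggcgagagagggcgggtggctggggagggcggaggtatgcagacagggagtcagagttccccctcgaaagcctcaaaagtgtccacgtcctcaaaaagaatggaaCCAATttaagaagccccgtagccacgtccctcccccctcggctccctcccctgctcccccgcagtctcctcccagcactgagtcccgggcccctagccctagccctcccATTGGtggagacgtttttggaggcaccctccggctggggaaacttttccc
CCAAT began at position -109 (with 0 the start as annotated in RefSeq) on the coding strand, and once more, on the opposite strand, at position 0. Whether transcription begins at the annotated base was not tested. Neither TATAAA nor the RUNX core ACCACA (complement TGTGGT) was found in this window. Of 32851 RefSeq promoters of that length 37.4% hold CCAAT, 13.6% TATAAA and 16.8% ACCACA on either strand.

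**Figure D2:**
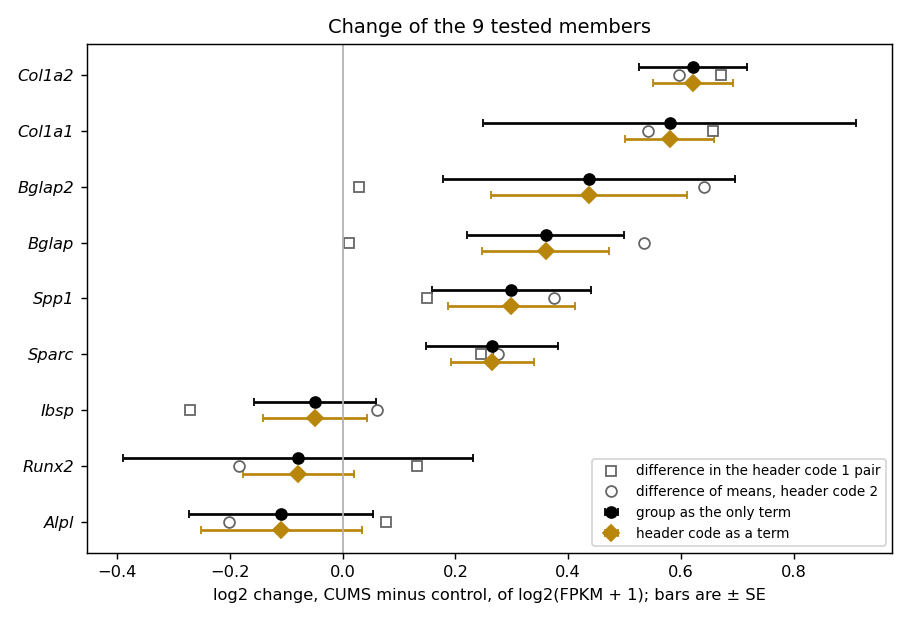
Log2 change (x axis, CUMS minus control, of log2(FPKM + 1)) of the 9 tested genes; black circles with SE bars come from the fit with group alone, gold diamonds from the fit with the header code as a term, and open symbols are the differences within each code. The Col1a1 bar shrinks from an SE of 0.330 to 0.079 when the code is a term, and the open symbols of Bglap lie apart, at 0.01 in code 1 and 0.53 in code 2.

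Osteocalcin, a small protein that binds calcium through carboxylated glutamates and is secreted by mature osteoblasts, is encoded in the mouse by neighbouring copies. Bglap (chromosome 3, 88383495 to 88384466) and Bglap2 (88377736 to 88378701) differ at 4 of 288 coding bases (98.6% identity). Both coding sequences are shown to make plain how little separates them (GENCODE M21 transcripts, GRCm38, read on the minus strand of chromosome 3 from the start codon to the stop codon, with the differing bases in capitals).
Bglap: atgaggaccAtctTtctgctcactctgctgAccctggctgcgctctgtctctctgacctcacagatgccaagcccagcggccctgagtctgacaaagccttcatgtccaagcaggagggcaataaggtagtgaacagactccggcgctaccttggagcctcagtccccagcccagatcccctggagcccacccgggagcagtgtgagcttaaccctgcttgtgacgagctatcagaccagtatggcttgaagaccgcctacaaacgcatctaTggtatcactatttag
Bglap2: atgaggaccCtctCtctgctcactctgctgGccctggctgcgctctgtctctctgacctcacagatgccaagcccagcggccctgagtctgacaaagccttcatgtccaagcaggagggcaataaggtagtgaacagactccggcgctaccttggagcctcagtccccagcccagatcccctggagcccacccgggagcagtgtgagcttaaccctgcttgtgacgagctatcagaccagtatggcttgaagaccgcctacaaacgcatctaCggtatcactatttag
The longest identical stretch was 241 bases, longer than the 151-base reads, and 31.4% of all 151-base windows of the Bglap transcript (91 of 290) were found exactly in Bglap2. How the authors divided reads that match both is not stated, so the split between the copies is uncertain. Bglap3, a further copy, differs at 13 coding bases, shares no such window, and was listed at 0 in 5 libraries.

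Bglap was at 12.0, 13.5 and 12.1 FPKM in CUMS libraries and at 11.9, 8.35 and 8.68 FPKM in control libraries. The groups did not overlap, but the control library of code 1 lay only just under the CUMS range. In the code 1 pair CUMS was at 1.01 times control and in code 2 at 1.50 times, so the difference did not hold within code 1. The log2 change was 0.36 (SE 0.139, limma adjusted p = 0.279; 0.0703 with the header code as a term). In code 2 alone the limma adjusted p was 0.00997, in a fit that called 17.7% of all tested genes.

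Bglap2 followed the same pattern at a lower level. It was at 8.29, 7.65 and 6.29 FPKM in CUMS libraries and at 8.10, 3.22 and 5.15 FPKM in control libraries. Control replicate 1 lay within the CUMS range and the other 2 control libraries below it. The log2 change was 0.44 (SE 0.259, limma adjusted p = 0.479, and 0.0478 in code 2 alone), with ratios of 1.02 in code 1 and 1.67 in code 2. Added together, to set aside the split of reads, the copies were at 20.3, 21.1 and 18.4 FPKM in CUMS libraries and at 20.0, 11.6 and 13.8 FPKM in control libraries, which overlapped (exact permutation p = 0.2). Bglap2 over Bglap was 0.692, 0.568 and 0.519 in CUMS libraries and 0.683, 0.385 and 0.593 in control libraries, with no separation of the groups (exact permutation p = 0.8).

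Spp1 encodes osteopontin, a phosphoprotein that ties cells to mineral through integrins and CD44. It was at 14.5, 15.4 and 12.2 FPKM in CUMS libraries and at 12.9, 11.5 and 9.31 FPKM in control libraries. The highest control library lay above the lowest CUMS library. The log2 change was 0.30 (SE 0.140, limma adjusted p = 0.363), at 1.12 times control in code 1 and 1.33 times in code 2.

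Sparc encodes osteonectin, which binds collagen and calcium. It was at 14.3, 12.1 and 12.5 FPKM in CUMS libraries and at 11.9, 10.6 and 9.37 FPKM in control libraries. The groups did not overlap, but the gap between them was small beside the spread within each. The ratio was 1.20 in code 1 and 1.23 in code 2, and the log2 change was 0.27 (SE 0.117, limma adjusted p = 0.336). With the header code as a term the limma adjusted p was 0.0509. Summed markers of megakaryocytes, whose platelets also carry Sparc, were at 80.8 to 93.7 FPKM in CUMS and 75.6 to 95.3 FPKM in control libraries, and none of their 5 genes was called by limma (none had an unadjusted p under 0.05).

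Ibsp, bone sialoprotein, a nucleator of mineral, was at 5.07, 5.87 and 5.54 FPKM in CUMS libraries and at 6.32, 5.38 and 5.47 FPKM in control libraries. The groups overlapped and its change was the smallest of the 9 in size: the log2 change was -0.05 (SE 0.108, 95% interval -0.30 to 0.20, limma adjusted p = 0.885). The codes went in opposite directions, with CUMS at 0.802 times control in code 1 and 1.05 times in code 2. Spp1 and Ibsp lie close together on chromosome 5 (104435111 to 104441053 and 104299287 to 104311472).

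Alpl, tissue-nonspecific alkaline phosphatase, was at 1.38, 0.712 and 1.18 FPKM in CUMS libraries and at 1.26, 1.00 and 1.47 FPKM in control libraries. It lay just above the level required for testing, and the groups overlapped, with CUMS at 1.10 times control in code 1 and 0.767 times in code 2. The log2 change was -0.11 (SE 0.163, 95% interval -0.49 to 0.27, limma adjusted p = 0.815). The interval holds changes compatible with these values and is not a limit of detection.

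Runx2, the osteoblast commitment factor, was at 4.22, 7.35 and 7.54 FPKM in CUMS libraries and at 3.76, 9.29 and 7.94 FPKM in control libraries. As with Col1a1, replicate 1 was the lowest of both groups, and the gene differed between the codes by 0.85 on the log2 scale (code 2 minus code 1, limma adjusted p = 0.00147). The log2 change between CUMS and control was -0.08 (SE 0.311, limma adjusted p = 0.938), upwards in code 1 (1.12 times control) and downwards in code 2 (0.864 times). With the code as a term the SE was 0.098 and the limma adjusted p 0.620. Exons of Runx2os1, on the opposite strand, overlap its exons over 519 bp in GENCODE, and whether counting used strand is not stated.

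The RUNX core ACCACA, the letters that RUNX2 is known to bind, was present in 4 of the 10 RefSeq promoter windows that the table holds for 8 of the genes (Bglap, the first of 2 for Spp1, Sparc and Runx2 itself), against 16.8% of all promoters. The promoters of Bglap (GRCm38.p6, chr3:88384417-88384716, minus strand) and Spp1 (the first of its starts, chr5:104434861-104435160, plus strand) are shown because both hold it at nearly the same distance (positions -132 and -128). Capitals mark the RUNX core, the CCAAT box and the TATA box, on either strand.
Bglap: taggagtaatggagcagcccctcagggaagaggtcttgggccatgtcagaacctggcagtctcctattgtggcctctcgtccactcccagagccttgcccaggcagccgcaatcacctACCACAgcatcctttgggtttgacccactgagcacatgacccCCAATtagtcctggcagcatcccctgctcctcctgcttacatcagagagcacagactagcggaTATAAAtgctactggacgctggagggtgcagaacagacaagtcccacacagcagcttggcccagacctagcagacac
Spp1: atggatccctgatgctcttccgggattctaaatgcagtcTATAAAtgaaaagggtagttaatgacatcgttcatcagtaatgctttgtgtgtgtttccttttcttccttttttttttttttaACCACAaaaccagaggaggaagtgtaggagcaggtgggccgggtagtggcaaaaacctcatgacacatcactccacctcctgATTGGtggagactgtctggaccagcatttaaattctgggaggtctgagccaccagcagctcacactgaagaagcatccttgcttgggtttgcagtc
In Bglap TATAAA began at position -27, and in Spp1 at -211. Ibsp, which lacks ACCACA in its window, held TATAAA in complement at -28. A match of letters is a description of the window, not of binding, and the genes with the core included Bglap and Sparc, whose groups did not overlap, and Runx2, whose groups did.

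By mean level over the 6 libraries the order was Col1a2 (13.1 FPKM), Spp1 (12.6), Sparc (11.8), Bglap (11.1), Col1a1 (10.3), Runx2 (6.68), Bglap2 (6.45), Ibsp (5.61), Alpl (1.17) and Col3a1 (0.344). Neighbours among the first 5 were not separated: Col1a2 lay above Spp1 in 4 of 6 libraries, and Bglap above Col1a1 in 2. Runx2 lay above Bglap2 in 3 of 6 libraries, and Bglap2 above Ibsp in 4. Col1a1 was above Runx2, Ibsp above Alpl, and Alpl above Col3a1 in all 6. The order is that of the values as given and could differ with other gene lengths. The order differed between the groups at the top: Col1a2 lay above Spp1 in 3 of 3 CUMS libraries and in 1 of 3 control libraries. In control the mean of Col1a2 (10.1 FPKM) was below those of Spp1 (11.3 FPKM) and Sparc (10.6 FPKM). By its mean over both groups Col1a2 ranked above 62.2% of all tested genes. The summed level of the 10 genes was 83.3, 93.4 and 89.5 FPKM in CUMS libraries and 70.5, 69.0 and 69.1 FPKM in control libraries.

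Other genes of bone formation were mostly low or level. Of 105 further genes in 7 lists 47 could be tested, and 1 rose and none fell, against 0.618% and 0.455% of all tested genes. Of all tested genes 15.4% (1898) had an unadjusted limma p under 0.05, the share against which such counts in each list below are to be read. With the header code as a term 4 were called higher (Mgp, Atf4, P4hb and Thbs1) and 5 lower (Plod1, Plod3, Itgb5, Mmp9 and Timp2). That fit called 13.4% of all tested genes. The one that rose in the fit with group alone was Mgp, matrix Gla protein, a vitamin K-dependent inhibitor of mineralization related to osteocalcin (chromosome 6, 136872435 to 136875823). It was at 9.27, 9.34 and 6.67 FPKM in CUMS libraries and at 3.26, 2.89 and 2.95 FPKM in control libraries, well apart. The mean was 2.78 times control (log2 change 1.21, SE 0.141, limma adjusted p = 0.0115), more than for any of the 10 genes above. The call was lost without CUMS replicate 2 (limma adjusted p = 0.0752), control replicate 2 (0.0579) or control replicate 3 (0.0735) and with no filter on low values (0.0866).

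**Figure D3:**
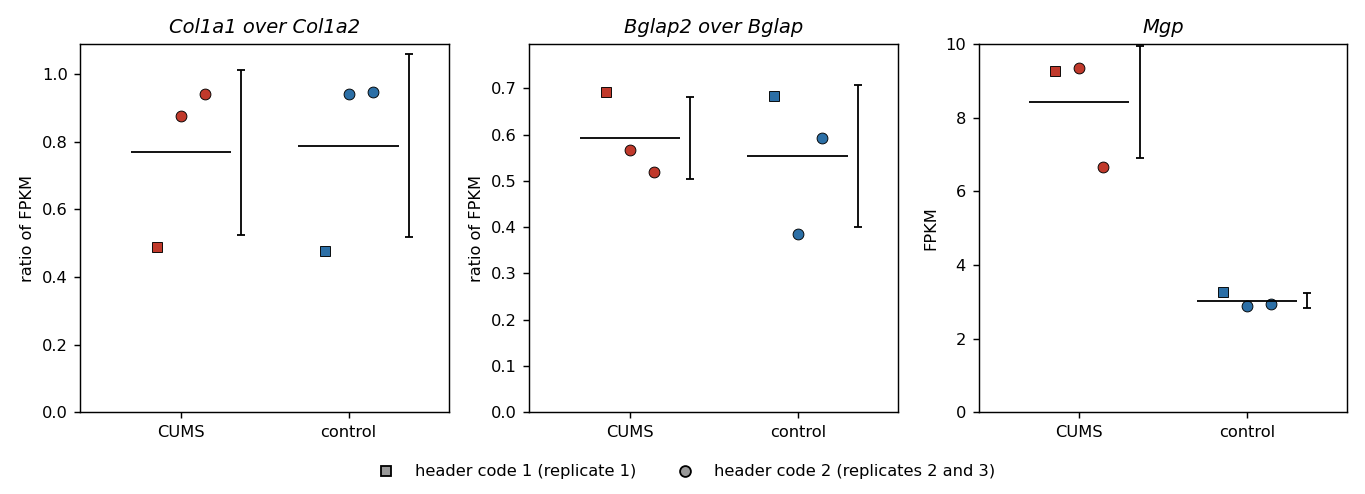
Ratios of FPKM between paired genes (left, Col1a1 over Col1a2; middle, Bglap2 over Bglap) and the FPKM of Mgp (right) in CUMS and control libraries, with squares for header code 1, lines for means and bars for SD (n = 3). The Col1a1 ratio is near 0.48 in both squares and 0.87 to 0.95 in all circles, while Mgp is at 6.67 to 9.34 in CUMS and 2.89 to 3.26 in control.

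Among 21 osteoblast transcription factors and BMP or Wnt signalling genes 9 could be tested. With group alone none was called by limma (1 had an unadjusted p under 0.05), with a median log2 change of -0.04. Sp7 (osterix), which acts after RUNX2, was under the level for a test, at 0.392, 0.202 and 0.10 FPKM in CUMS libraries and at 0.237, 0.223 and 0.243 FPKM in control libraries. Atf4, which drives amino acid supply and Bglap transcription, was at 130 ± 13.4 FPKM in CUMS and 110.1 ± 15.9 FPKM in control. Its limma adjusted p was 0.423, and 0.0324 with the header code as a term. Ctnnb1, beta-catenin of the Wnt pathway, was at 58.8 ± 1.88 FPKM in CUMS and 60.1 ± 3.77 FPKM in control (limma adjusted p = 0.918). None of 15 other osteoblast and osteocyte genes reached the level for a test. The osteocyte product Sost and the decoy receptor Tnfrsf11b were listed at 0 in all 6 libraries. Ifitm5, a membrane protein of mineralizing osteoblasts, averaged 0.418 ± 0.149 FPKM in CUMS and 0.892 ± 0.497 FPKM in control, and the cadherin Cdh11 0.380 ± 0.024 FPKM in CUMS and 0.372 ± 0.062 FPKM in control.

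In the list of mineralization and phosphate handling 5 of 8 genes were tested, with Mgp the one called. Among 19 genes that modify, fold, process or cross-link collagen 12 were tested. With group alone none was called (2 had an unadjusted limma p under 0.05), with a median log2 change of -0.08. The prolyl hydroxylase subunit P4hb was at 108 ± 14.3 FPKM in CUMS and 91.2 ± 8.44 FPKM in control. Its limma adjusted p was 0.423, and 0.0358 with the header code as a term. The isomerase Ppib was at 112 ± 18.6 FPKM in CUMS and 111 ± 25.5 FPKM in control (limma adjusted p = 0.963). The lysyl hydroxylase and glycosyltransferase gene Plod3 was lower in every CUMS library, at 23.4, 20.2 and 21.9 FPKM against 30.1, 28.0 and 28.9 FPKM in control libraries; its limma adjusted p was 0.0991, and 0.0233 with the replicate block.

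Of 21 other collagens and matrix proteins 7 were tested and none was called with group alone (1 with an unadjusted limma p under 0.05, median 0.02). Fn1, fibronectin, was at 66.8 ± 20.4 FPKM in CUMS and 74.1 ± 34.3 FPKM in control (limma adjusted p = 0.959). Thbs1, thrombospondin 1, which is abundant in platelets, was at 31.6, 47.0 and 44.7 FPKM in CUMS libraries and at 22.2, 34.6 and 30.3 FPKM in control libraries. Like Col1a1 it was lowest in replicate 1 of each group, and its limma adjusted p was 0.301 with group alone and 0.0125 with the replicate block.

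Receptors and breakdown enzymes gave no call in the fit with group alone. Among 12 collagen and osteopontin receptors 7 were tested (1 had an unadjusted limma p under 0.05; median -0.02). Cd44 was at 64.1 ± 2.04 FPKM in CUMS and 62.3 ± 4.38 FPKM in control (limma adjusted p = 0.882), and the integrin subunit Itgb1 at 36.6 ± 1.78 FPKM in CUMS and 35.3 ± 1.80 FPKM in control (0.853). Itgb5 was lower in every CUMS library, at 3.59 ± 0.516 FPKM against 6.16 ± 0.408 FPKM in control (limma adjusted p = 0.0593, and 0.0180 with the block). Of 9 genes of collagen breakdown 7 were tested (3 with an unadjusted limma p under 0.05; median 0.03). Mmp9, a gelatinase that marrow neutrophils store, was at 291 ± 11.0 FPKM in CUMS and 412 ± 37.5 FPKM in control (limma adjusted p = 0.0776, and 0.0240 with the block), and the neutrophil collagenase Mmp8 at 350.4 ± 18.6 FPKM in CUMS and 329 ± 34.7 FPKM in control (0.750).

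**Figure D4:**
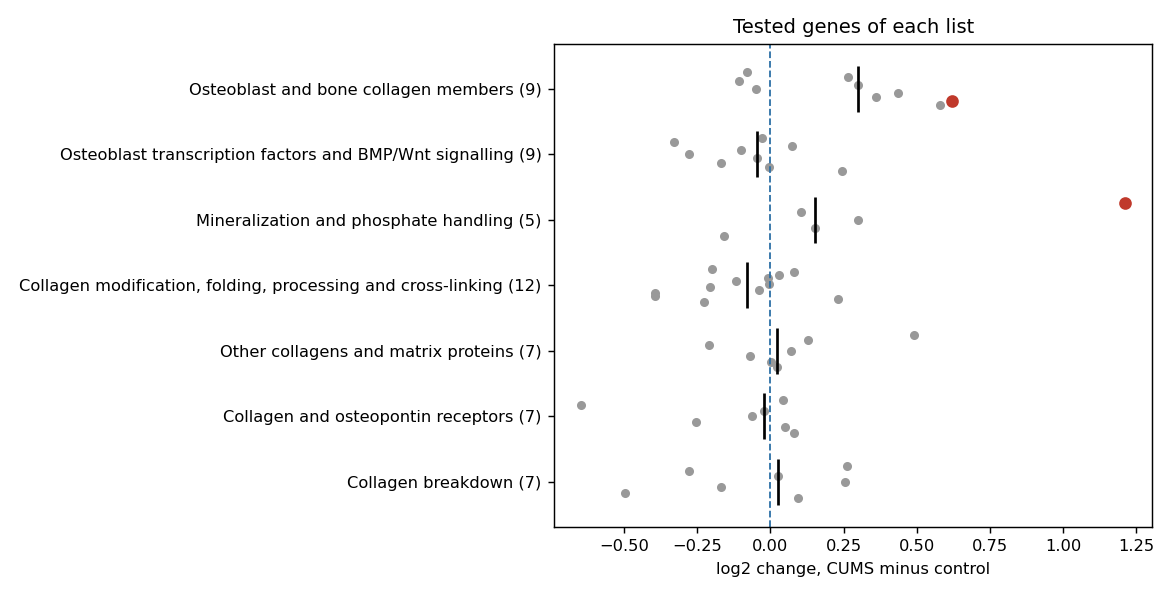
Log2 change (x axis, CUMS minus control) of every tested gene of the 10-gene set and of 6 related lists (rows, number tested in brackets); red points passed the test, black bars are medians and the dashed line is the median of all tested genes. The median of the set is 0.30, while the other medians lie between -0.08 and 0.15, and the red points are Col1a2 and Mgp.

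Markers of neighbouring cells were measured beside these results. Summed FPKM of 12 markers of marrow stromal cells, the CXCL12-abundant reticular cells, was 149 to 160 in CUMS and 131 to 145 in control libraries, without overlap. Cxcl12, Igfbp4 and Vcam1 were the most abundant of the 12. Igfbp4 and Vcam1 were at 1.06 and 1.01 times the control mean and overlapped between the groups, so the sum does not describe the whole list. Beside Cxcl12, Angpt1, Kitl and Foxc1 were higher in every CUMS library, at 1.44, 1.56 and 1.89 times control. Lepr, Ebf3 and Pdgfrb had means above control and overlapped. Igfbp5, Pdgfra and Nes had means below control, at 0.966, 0.757 and 0.495 times, and overlapped. Kitl, Foxc1, Ebf3, Pdgfrb, Pdgfra and Nes were under the level for a test. Of the 6 tested none was called (2 had an unadjusted limma p under 0.05). Among those tested 5 had values above control and 1 below, with a median log2 change of 0.14. Cxcl12, the defining chemokine of these cells, was at 56.9, 54.7 and 52.8 FPKM in CUMS libraries and at 47.3, 42.1 and 39.9 FPKM in control libraries (limma adjusted p = 0.151, and 0.0320 with the replicate block). Col1a2 over Cxcl12 was 0.274, 0.298 and 0.309 in CUMS libraries and 0.199, 0.235 and 0.277 in control libraries, which overlap (exact permutation p = 0.2). The overlap was between the header codes, and within each code the CUMS ratios lay above those of control. The part of stromal cell number in the Col1a2 result was not tested.

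Sums of endothelial, osteoclast, chondrocyte, adipocyte and skeletal muscle markers overlapped between the groups. They were 27.5 to 29.1 FPKM in CUMS and 27.7 to 29.9 FPKM in control for 10 endothelial genes, and 72.1 to 82.4 FPKM in CUMS and 72.9 to 82.2 FPKM in control for 9 osteoclast genes. The 9 chondrocyte genes summed to 0.526 to 0.969 FPKM in CUMS and 0.601 to 0.952 FPKM in control. For 7 adipocyte genes the sums were 11.6 to 16.0 FPKM in CUMS and 12.8 to 16.3 FPKM in control, and for 7 skeletal muscle genes 5.89 to 7.11 FPKM in CUMS and 4.73 to 7.01 FPKM in control. The cartilage gene Matn3 was listed at 0 in all 6 libraries. The 8 macrophage markers summed to 161 to 177 FPKM in CUMS and 188 to 245 FPKM in control, with all CUMS libraries lower. None of the 7 tested was called (2 had an unadjusted limma p under 0.05). With the replicate block 3 were called lower, against 4.31% of all tested genes. These were the complement genes C1qa (limma adjusted p = 0.0145), C1qb (0.0457) and C1qc (0.0361). The other tested markers overlapped between the groups, with Adgre1 at 0.907, Mertk at 0.842, Vcam1 at 1.01 and Cd5l at 1.06 times control. Gpnmb, under the level for a test, was higher in every CUMS library, at 1.64 times control. Spp1, which macrophages also make, had a CUMS mean above control, and the part of macrophages in its values was not tested.

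Among the genes whose values over the 6 libraries lay closest to the mean pattern of the 9 tested genes were Mat2a, Kif4, Ndc1, Adgrl4, Ssr1, Nucks1 and Pwp2. Likeness was the root mean square difference of centred log2 values over 6 libraries, from 0.026 for Mat2a to 0.036 for Pwp2. These genes were chosen for the smallest distance, so their closeness is a description. The distance of the members from their own mean was 0.15 for Sparc, 0.16 for Bglap, 0.43 for Runx2 and 0.44 for Col1a1.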

How the data were processed

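Per the labels, RNA was extracted with TRIzol, made into TruSeq libraries and sequenced as paired reads of 151 bp. Tools listed without roles in the submitters' processing notes are HISAT2 2.1 and featureCounts 1.6.4, then cutadapt 1.16.5, bcl2fastq 2.19 and DESeq2 2.11.40.6. The build given is mm10. The values the authors deposited are FPKM, a unit read from the values (not whole, and 561563 to 658595 per library in sum). The tool that made them, its handling of strand and of reads matching several genes, and any scaling between samples are not given in the sources used here, and the files hold no counts, so precision rests on 3 libraries a group.

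The tests used limma 3.58.1 in R 4.3.3 on log2(FPKM + 1) with an intensity trend, group as the only term, a floor of 1 FPKM reached in 3 or more libraries, and Benjamini-Hochberg adjustment over all 12302; the threshold was 0.05. Log2 changes on this scale understate those of low genes. The fit was tested on simulated data. Python 3.11.15 and matplotlib 3.10.9 made tables and plots. Genes, lists and tests were chosen with earlier results of these data known. All 10 genes were named; from each list called genes (at most 4, by p) or else the 2 with the highest mean. Sp7, Sost, Tnfrsf11b, Bglap3, Plod3, Itgb5, Cxcl12 and Matn3 were chosen after their values were seen. Alternatives were another pseudocount, no filter, total scaling, quantile normalization, the header code and the replicate block, and leaving out each library. Same-numbered replicates deviated together (correlations across genes of 0.689, 0.452 and 0.363 of deviations from group means), but replicates 2 and 3 crossed gave 0.459 and 0.362, and replicate 1 shares the header code, so the numbers are used as a block without a stated source of pairing. Positions are RefSeq on GRCm38.p6; the reads were not aligned again. Promoters come from RefSeq (GRCm38.p6) and coding sequences and exon overlaps from GENCODE M21; the promoter table matched 8 of the 10 genes, leaving Col1a1 and Bglap2. One gene of like pattern is not reported here.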

Additional observations from a re-analysis of the deposited data

How the results depend on the processing

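Over all tested genes 132 were called, and 36 with no filter on low values, 199 with quantile normalization, 959 with the replicate block, 1645 with the header code as a term, 2173 in header code 2 alone, and 17 to 262 when 1 library was left out. Scaling to the same total gave 166, with 39.2% of calls higher against 57.6%, and put the median over all genes at -0.0356 (log2). Of the 10 genes 1 was called, and 0 with no filter or total scaling, 2 with the block or the code term, 4 in code 2 alone, and 0 to 1 without 1 library. Of the 47 tested list genes 1 was called, and 0 with no filter, 2 with total scaling, 5 with the block, 9 with the code term, 10 in code 2 alone, and 0 to 2 without 1 library. The block changed the call of Col1a1 and of no other of the 10. Directions turned for 3 genes that no fit called: the log2 change of Ibsp was 0.062 in code 2 alone and -0.091 to 0.014 without 1 library (positive without control replicate 1), that of Alpl -0.21 to 0.029 (positive without CUMS replicate 2), and that of Runx2 -0.41 to 0.15 (0.15 without CUMS replicate 1, 0.14 without control replicate 2 and 0.039 without control replicate 3). In the code 1 pair, which has no test, Alpl was at 0.077, Runx2 at 0.13 and Ibsp at -0.27. The other 6 kept their direction in every setting run, and the pseudocount of 0.1 changed no call of the 10. Dropping a library leaves fewer samples and dropping the filter more genes to adjust over, but the cause of these changes was not tested. Rescaling to TPM left the order of the 10 levels unchanged. It multiplies each library by a constant and cannot reorder genes within a library, so it does not test the order. Gene length was not varied. With 3 libraries a group and no counts, changes of low genes such as Alpl and Col3a1 were not detectable unless large.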

Other observations

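Around Col1a2 alone, a choice made after its call was seen, the 8 closest patterns over the 6 libraries were those of LOC115487644, Nipa1, Agtr1a, H2ac24, Gm8783, Osm, LOC115489081 and Ddx21, with root mean square differences of 0.031 to 0.082. Agtr1a, an angiotensin II receptor, was at 6.87, 7.81 and 8.36 FPKM in CUMS libraries and at 4.03, 4.14 and 4.77 FPKM in control libraries (log2 change 0.71, limma adjusted p = 0.0338). Osm, oncostatin M, a cytokine of the interleukin-6 family, was at 55.2, 54.4 and 55.0 FPKM in CUMS libraries and at 30.2, 33.2 and 33.5 FPKM in control libraries (log2 change 0.75, limma adjusted p = 0.0115). Genes chosen to follow Col1a2 separate the groups as it does, so these values are a description.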
